A study of Mus musculus with 4 samples.

Results

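The sterol and fatty acid synthesis genes are 32 genes of the SREBP pathway, taken from a fixed list of names, and all 32 had a row among the 17104 genes of the expression table. 23 of them belong to cholesterol (7 enzymes of the mevalonate steps, 11 enzymes from squalene to cholesterol, 4 regulators and 1 sterol transporter) and 9 to fatty acids (3 enzymes of synthesis, 6 of elongation and desaturation). They were measured by RNA-seq in bone marrow YFP+, c-kit+ cells, a population enriched for leukemia stem cells (LSCs), of male C57 mice with MLL-AF9 acute myeloid leukemia, at week 6 of the secondary transplantation. All cells came from CD37 fl/fl, Cre+ donors carrying Rosa26-CreERT2, whose lineage-negative marrow had been infected with MSCV-MLL-AF9-IRES-YFP, so that both groups held the floxed gene, the Cre, the fusion oncogene and YFP. Recipients of the primary transplantation received tamoxifen in the CD37-/- group, which removes exons 4 and 5 of Cd37 in the donor cells, and corn oil in the CD37 fl/fl group, so that deletion and tamoxifen cannot be told apart. Secondary recipients were sublethally irradiated and also received supporting marrow cells. The sample titles call the corn oil group WT, while the genotype label gives CD37 fl/fl. Each group had 2 replicates, and the labels give neither an age nor the number of mice behind a replicate, so the p-values measure the spread between these libraries, which may be technical. The comparison asks how deletion of CD37, a tetraspanin, alters the transcriptome of LSCs.

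Cholesterol is built from acetyl-CoA through mevalonate, farnesyl diphosphate, squalene and lanosterol, and fatty acids from acetyl-CoA through malonyl-CoA to palmitate, which is then elongated and desaturated. The enzymes are largely under the control of the SREBP transcription factors. When membrane sterol is low, SCAP escorts SREBP from the endoplasmic reticulum to the Golgi, where it is cut and released to the nucleus, and when sterol is high, INSIG proteins hold the complex back. SREBP binds beside NF-Y and Sp1 at many of these promoters, and dividing leukemia cells need both pathways for new membrane.

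Promoter sequences of RefSeq (GRCm38.p6, 250 bases before to 50 after the start) were found for 25 of the 32 genes. They were searched on both strands for TCACNCCAC, a form of the SREBP element, and for CCAAT, the core of the NF-Y site, and a match is a string of letters, not a bound site. TCACNCCAC was present for 1 of the 25 genes (4.0%), Hmgcs1, and for 1.4% of all 27025 genes with a promoter. CCAAT was present for 20 of the 25 genes (80%), against 41.1% of all genes. The Sp1 letters GGGCGG were also present for 20 (80%), against 38.2%, and the E-box CACGTG, to which SREBP-1 can also bind, for 6 (24%), against 8.1%. Promoters are shown for the gene with the SREBP element, for a gene that was lower in both CD37-/- libraries (Msmo1), for one that was higher in both (Sc5d) and for the desaturase Fads2, which held neither TCACNCCAC nor CCAAT. Capitals mark the matches to TCACNCCAC and CCAAT only, and read ATTGG where CCAAT lies on the other strand, and each sequence runs 5′ to 3′ in the direction of the gene.
Hmgcs1, chr13:119690101-119690400, plus strand: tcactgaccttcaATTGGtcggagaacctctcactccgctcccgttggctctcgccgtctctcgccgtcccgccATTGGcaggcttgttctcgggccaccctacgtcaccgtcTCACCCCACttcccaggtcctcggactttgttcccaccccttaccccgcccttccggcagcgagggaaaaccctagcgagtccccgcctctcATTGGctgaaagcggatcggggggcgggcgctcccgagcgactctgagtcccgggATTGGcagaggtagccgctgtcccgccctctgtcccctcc
Msmo1, chr8:64733529-64733828, minus strand: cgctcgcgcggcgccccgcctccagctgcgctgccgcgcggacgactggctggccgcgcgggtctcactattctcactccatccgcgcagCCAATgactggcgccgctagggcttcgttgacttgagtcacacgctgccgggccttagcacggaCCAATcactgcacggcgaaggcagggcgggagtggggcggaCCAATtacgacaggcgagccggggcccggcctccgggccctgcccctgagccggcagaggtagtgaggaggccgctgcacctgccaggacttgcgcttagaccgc
Sc5d, chr9:42264251-42264550, minus strand: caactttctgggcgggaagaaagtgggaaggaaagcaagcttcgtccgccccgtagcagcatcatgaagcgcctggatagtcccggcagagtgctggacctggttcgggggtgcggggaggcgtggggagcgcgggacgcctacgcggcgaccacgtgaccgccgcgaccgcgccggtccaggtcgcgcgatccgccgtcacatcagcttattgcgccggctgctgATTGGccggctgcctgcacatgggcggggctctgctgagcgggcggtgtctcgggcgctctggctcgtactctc
Fads2, chr19:10101454-10101753, minus strand: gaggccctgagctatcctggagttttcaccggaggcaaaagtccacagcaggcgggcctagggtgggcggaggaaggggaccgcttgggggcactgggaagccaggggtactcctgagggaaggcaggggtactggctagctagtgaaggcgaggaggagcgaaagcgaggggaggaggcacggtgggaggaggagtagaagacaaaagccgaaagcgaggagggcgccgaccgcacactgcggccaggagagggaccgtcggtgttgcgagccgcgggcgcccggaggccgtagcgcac

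Expression was deposited as FPKM, in which the fragments of a gene are divided by its length and by library depth. The kilobases were those of the whole genomic span in the GENCODE M21 annotation of GRCm38, introns included, since the values then came out as whole reads for 16843 of the 17104 genes (98.47%) in all 4 libraries. The recovered reads summed to 15139063 to 22562837 per library. The span was 1.26 (Tm7sf2) to 19.1 times (Elovl5) the exon length among the 32 genes, so the deposited FPKM of genes with long introns is low for their reads, and levels of different genes are compared below only per kilobase of exon. Cd37, on chromosome 7 from 45233632 to 45239115, measured 56.6 and 46.8 FPKM in CD37 fl/fl and 23.2 and 22.9 FPKM in CD37-/- LSCs, a ratio of 0.446 with a limma adjusted p of 0.104. Transcripts without exons 4 and 5 can still give Cd37 reads, so a value per gene does not show how complete the deletion was. Among markers of myeloid progenitors, 9 of 9 were in the table and 6 had a mean FPKM above 1, with a summed FPKM of 2676 and 3778 in CD37 fl/fl and of 2642 and 2444 in CD37-/- libraries. The sum came mostly from Elane, Prtn3 and Ctsg. Mpo, Prtn3 and Ctsg were lower in both CD37-/- libraries, Kit and Cebpa were higher in both, and the rest overlapped. Kit was detected at 213 to 804 reads, and Cd34 and Flt3 at 5 to 31 reads. Erythroid markers were higher in both CD37-/- libraries for all 7 genes in the table, of 8 listed (summed FPKM 576 and 143 against 61.0 and 5.17). The summed FPKM of dendritic cell and macrophage markers, 8 of 8 in the table, was highest in CD37 fl/fl replicate 1 (215, against 14.3 to 38.0 in the other libraries), mostly from Cd74 (170.6) and H2-Ab1 (30.8), while Vcam1, Adgre1 and Siglech were highest in a CD37-/- library. The summed FPKM was lower in both CD37-/- libraries for markers of B cells (6.64 to 15.4 over the libraries, nearly all from Cd79b, while Cd79a was higher there) and of T and NK cells (40.3 to 118, nearly all from Nkg7). For stroma it overlapped (1.85 to 4.28), nearly all from Lpl and Pecam1. Lpl and, at 6 to 24 reads, Pdgfrb were lower in both CD37-/- libraries. Pecam1 overlapped, and Col1a1, at 4 to 20 reads, was higher in both. The table held 5 of 6 listed markers of B cells, 4 of 7 of T and NK cells and 6 of 8 of stroma, and none of those it held was at 0 in all libraries. The part of other cells in the values below was not tested. In bulk samples, fewer cells of a type and less RNA per cell cannot be told apart.

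Per kilobase of exon, the most abundant of the 32 genes were Acly, which makes cytosolic acetyl-CoA from citrate (42.5 to 57.3 over the 4 libraries), Mvd (40.7 to 62.6), Ebp (37.0 to 46.4) and Scd2 (23.2 to 78.5). Pmvk (21.1 to 53.5), Insig1 (31.1 to 38.5) and Fasn (28.3 to 41.0) followed, and each of these 7 genes overlapped with its neighbours in this order. The lowest were Scd1 (0.0181 to 0.319, from 2 to 27 reads per library), Lss (0.0786 to 1.23) and Fdps (0.574 to 1.1). Measured levels along the pathway were thus uneven, since Mvd and Lss, which act in 1 route, had mean levels of 47.3 and 0.639. The exon length counts all annotated exons, 10787 bases for Lss, whose longest coding transcript has 4667. For Fdps it is 4208 against 1382, and for Mvd 1859 against 1756. The part of exon length and of shared sequence (below) in these levels was not tested. Between Scd1 and Scd2, the stearoyl-CoA desaturases among the 32 genes, Scd2 accounted for nearly all reads (2522 to 7429 per library, against 2 to 27 for Scd1). Of the SREBP genes, Srebf1 (14.2 to 22.9) and Srebf2 (16.1 to 29.8) had overlapping levels.

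**Figure D1:**
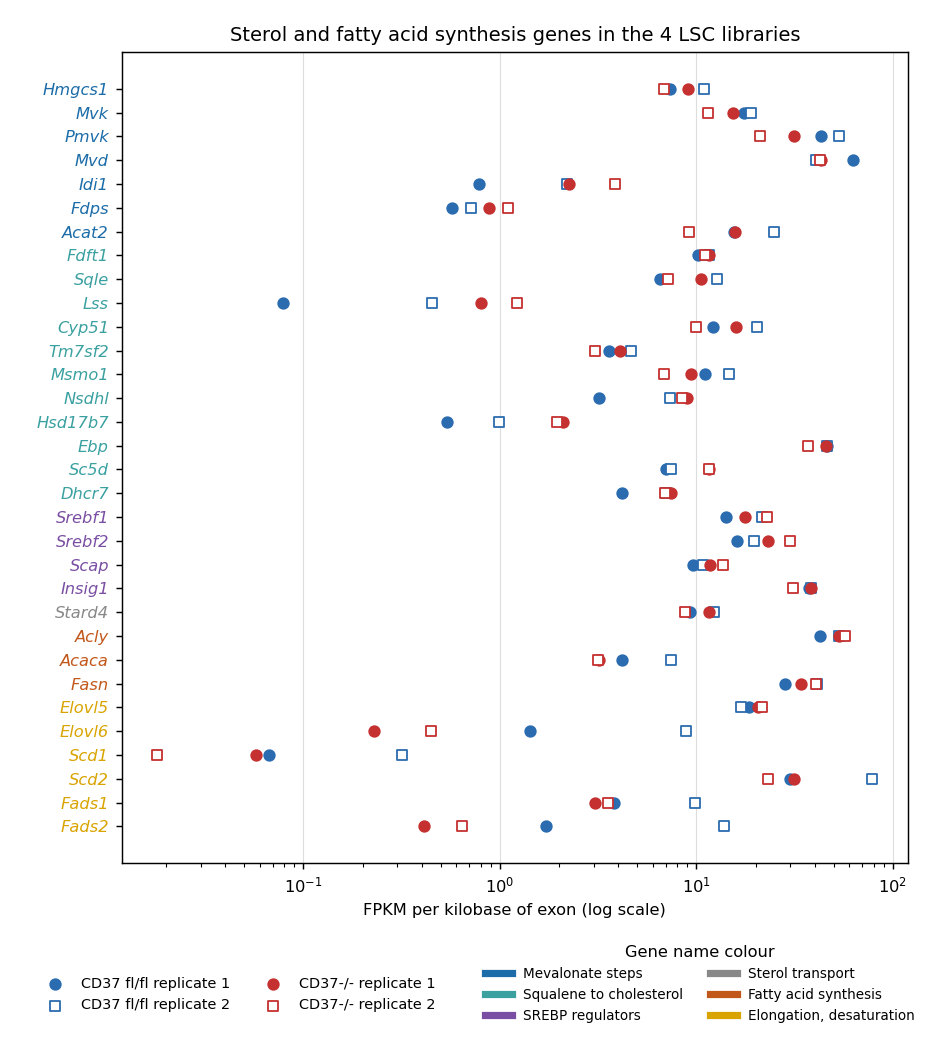
FPKM per kilobase of exon (log axis) of the 32 genes in each of the 4 LSC libraries, in the order of the pathway, with circles and squares for replicates 1 and 2. The widest distances between libraries are those of Lss, Elovl6, Scd1 and Fads2, and the libraries of most other genes lie closer together. Over the 32 genes, all CD37-/- points lie above all CD37 fl/fl points for 10, below for 9 and overlap for 13. The share without overlap (59.38%) is near that of all 16973 genes above 0 (54.96%, 6339 higher and 2989 lower in CD37-/-).

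Differences between CD37-/- and CD37 fl/fl LSCs were fitted with limma on log2(FPKM + 1) for the 6761 genes whose mean reached 1 FPKM, which held 24 of the 32 genes. None of the 24 had an adjusted p under 0.05 (the smallest was 0.152, limma with Benjamini-Hochberg adjustment), as was so for all 6761 genes. At an unadjusted p under 0.05, 2 of the 24 genes (8.333%) were called by limma, Sc5d higher and Pmvk lower, where 24% of all genes tested were called (16.1% higher, 7.96% lower). 10 of the 24 log2 fold changes were above 0 and 14 below (41.2% of all genes tested were below), and their median was -0.09, where that of all genes tested was 0.11. TPM rescaling turned this median to 0.27 (that of all genes to 0.49) and 8 of the 14 values below 0 to above 0, while quantile and upper quartile scaling kept it below 0 (-0.22 and -0.23), and the distance to all genes was -0.20, -0.22, -0.20 and -0.20 in the 4 scalings. With 1 library left out, the distance was -0.05 without CD37 fl/fl replicate 2 and -0.09 without CD37-/- replicate 2, where the median of the 24 genes itself was above 0 (0.08 and 0.01), and -0.35 without CD37-/- replicate 1. The groups did not overlap for 11 of the 24 genes (45.83%; 6 higher and 5 lower in CD37-/-), against 61.9% of all genes tested (38.2% higher and 23.7% lower). The share called among these genes was thus below the background in this fit, while in limma-voom (below) it was above it (35.48%, against 23.93% of all genes). The 24 genes passed a filter on the mean, so these counts do not describe all 32. The 8 genes below it (Fdps, Lss, Nsdhl, Hsd17b7, Acaca, Elovl6, Scd1 and Fads2) are given from a limma fit of all 16973 genes above 0 and from limma-voom on the reads recovered for 12901 genes, which held 31 of the 32 genes (not Scd1).

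**Figure D2:**
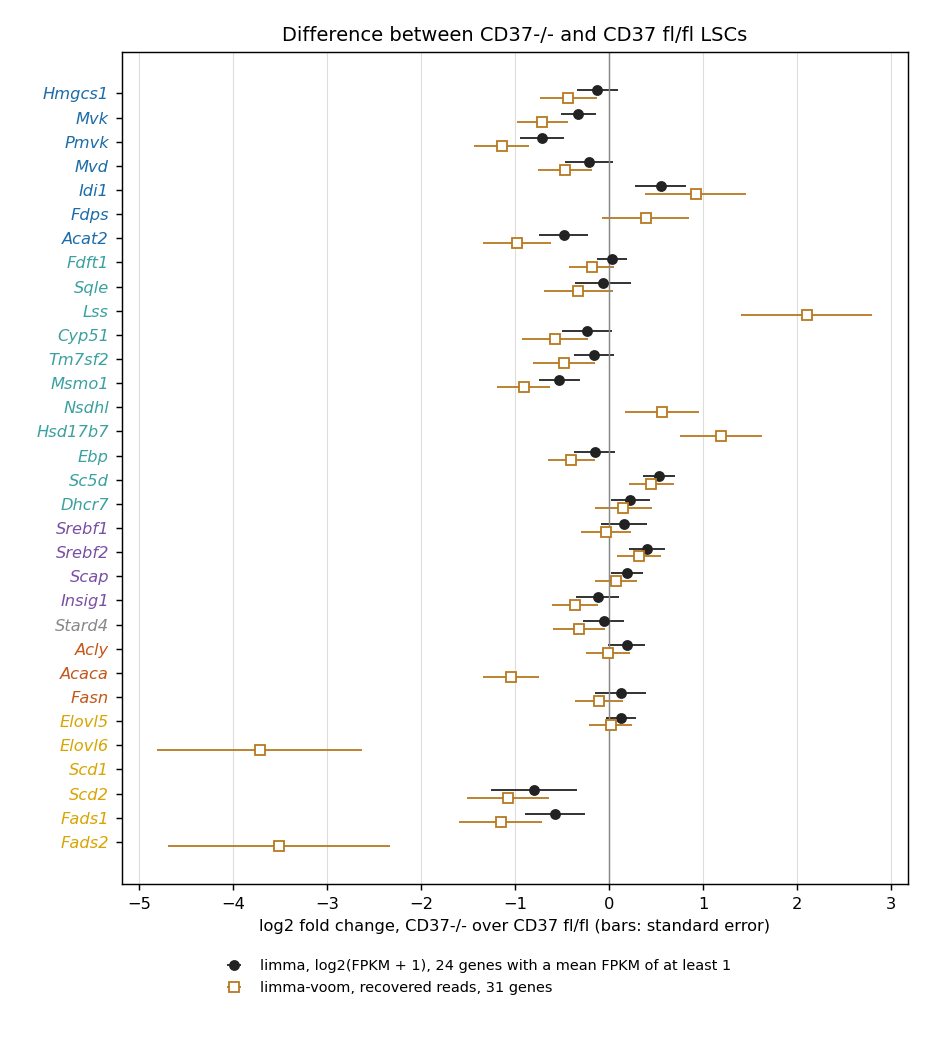
log2 fold change (CD37-/- over CD37 fl/fl) of each gene with its standard error, from limma on log2(FPKM + 1) for 24 genes (black circles) and from limma-voom on recovered reads for 31 genes (open squares). Points lie on both sides of 0, and the furthest are Elovl6 (-3.72) and Fads2 (-3.51) on the lower side and Lss (2.10) on the higher side, all in limma-voom and all with an adjusted p above 0.05.

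Among the 7 enzymes of the mevalonate steps, 6 were tested, 5 with a log2 fold change below 0 and 1 above, and 1 (Pmvk) had an unadjusted p under 0.05 in limma. Pmvk, phosphomevalonate kinase (chromosome 3, 89454541 to 89469013), measured 5.07 and 6.33 FPKM in the controls and 3.72 and 2.5 FPKM in the CD37-/- libraries. Both CD37-/- libraries lay below both controls. This gave a log2 fold change of -0.72 (standard error 0.23) and, in limma, an unadjusted p of 0.0217 and an adjusted p of 0.154. It kept its sign with each library left out in turn, between -0.93 and -0.50. Mvk, the kinase before it, had an FPKM of 2.87 and 3.11 against 2.51 and 1.88, without overlap (log2 fold change -0.33, standard error 0.19). Acat2, the cytosolic acetyl-CoA acetyltransferase that opens the route, had an FPKM of 2.23 and 3.55 against 2.24 and 1.31, and the groups overlapped (-0.48, standard error 0.26). Hmgcs1, HMG-CoA synthase, had an FPKM of 1.88 and 2.81 against 2.33 and 1.76 (-0.13, standard error 0.22), and Mvd, which decarboxylates mevalonate diphosphate, of 11.8 and 7.71 against 8.13 and 8.1 (-0.22, standard error 0.25). For both genes the spread between the control replicates was larger than the difference. Idi1, isopentenyl diphosphate isomerase, went the other way, with an FPKM of 0.394 and 1.11 against 1.13 and 1.95. CD37 fl/fl replicate 2 and CD37-/- replicate 1 were nearly equal, and the log2 fold change of 0.55 (standard error 0.28, limma adjusted p = 0.272) was 0.25 without CD37 fl/fl replicate 1. Fdps, farnesyl diphosphate synthase, had 37 and 52 reads against 66 and 105 and was not called in any fit.

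Of the 11 enzymes from squalene to cholesterol, 8 were tested, with 3 log2 fold changes above 0, 5 below and 1 unadjusted p under 0.05. That was Sc5d, sterol C5-desaturase (chromosome 9, 42251595 to 42264256), at 2.69 and 2.85 FPKM in the controls and 4.44 and 4.47 FPKM in CD37-/- LSCs. The replicates of each genotype nearly coincided. limma gave a log2 fold change of 0.53 (standard error 0.17), an unadjusted p of 0.0212 and an adjusted p of 0.152, and the value lay between 0.50 and 0.57 with each library left out. In limma-voom it was 0.45 (standard error 0.24), with an unadjusted p of 0.0967. Msmo1, which removes the C4 methyl groups and acts a few steps earlier, had an FPKM of 4.32 and 5.73 against 3.67 and 2.68. The groups did not overlap, in the direction opposite to Sc5d (log2 fold change -0.53, standard error 0.22, limma adjusted p = 0.215). Sqle, squalene epoxidase, had 2.25 and 4.4 against 3.63 and 2.48, and Cyp51, lanosterol demethylase, 2.29 and 3.79 against 2.98 and 1.86. The CD37-/- libraries lay within the range of the controls for Sqle and overlapped with them for Cyp51, and the log2 fold changes were -0.06 (standard error 0.30) and -0.23 (0.27). Tm7sf2, a sterol C14-reductase, had an FPKM of 2.83 and 3.7 against 3.24 and 2.4 (-0.16, standard error 0.21). Fdft1, squalene synthase, was the steadiest, at 1.25 and 1.42 against 1.42 and 1.35 (log2 fold change 0.03, standard error 0.16). Ebp, the sterol isomerase, had an FPKM of 13.1 and 13 against 12.9 and 10.4 (-0.15, standard error 0.22). Dhcr7, which makes cholesterol in the last step of its branch, had 0.958 and 1.62 against 1.71 and 1.59 (0.23, standard error 0.20), and CD37 fl/fl replicate 1 stood below the other 3 libraries.

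Below the filter on the mean lay 3 enzymes of the same segment, and their values were higher in both CD37-/- libraries. Lss, lanosterol synthase (chromosome 10, 76531588 to 76557138), was covered by 13 and 84 reads in the controls and by 154 and 299 reads in the CD37-/- libraries. Hsd17b7, a sterol 3-ketoreductase (chromosome 1, 169949535 to 169969241), had 42 and 88 reads against 190 and 225. Nsdhl, which acts with Msmo1 at carbon 4, had 140 and 365 reads against 451 and 545. All 3 had the fewest reads in CD37 fl/fl replicate 1, the library with the lowest total. Their FPKM, which is scaled by depth, was also lowest in that library, at 0.0332 for Lss, 0.139 for Hsd17b7 and 0.229 for Nsdhl. In CD37 fl/fl replicate 2 it was 0.19, 0.258 and 0.527. With all genes above 0, the log2 fold changes were 0.36 for Lss and 0.35 for Hsd17b7, with unadjusted p of 0.0355 and 0.0134 and adjusted p of 0.277 and 0.263 (limma with Benjamini-Hochberg adjustment). In that fit 3 of the 32 genes were called higher (Sc5d, Hsd17b7 and Lss) and 1 lower (Pmvk), where limma called 12.6% of all genes higher and 4.59% lower. In limma-voom, whose scale does not compress low values, the log2 fold changes were 2.10 for Lss (standard error 0.70, unadjusted p = 0.0186) and 1.19 for Hsd17b7 (standard error 0.44, unadjusted p = 0.0279). Without CD37 fl/fl replicate 1 that of Lss was 0.97.

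Of the 4 regulators, limma called 0 at an unadjusted p under 0.05. Srebf2, which mainly drives the sterol genes, measured 1.99 and 2.43 FPKM in the controls and 2.84 and 3.68 FPKM in the CD37-/- libraries. Both CD37-/- libraries were higher, with a log2 fold change of 0.40 (standard error 0.19, limma adjusted p = 0.255) that was 0.26 to 0.55 with each library left out. Srebf1, which mainly drives the fatty acid genes, had 3.4 and 5.2 against 4.25 and 5.5, and the groups overlapped (0.16, standard error 0.24). Scap, the sterol sensor and escort, had 1.38 and 1.56 against 1.69 and 1.96 (0.19, standard error 0.17). Insig1, the retention protein and itself an SREBP target, had 15.8 and 16.3 against 16.2 and 13.2 (-0.12, standard error 0.23). Stard4, a soluble carrier of cholesterol, had 3.56 and 4.71 against 4.47 and 3.38 (-0.06, standard error 0.22). Insig1 and Stard4 overlapped between the genotypes, while Srebf2 and Scap did not.

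In fatty acid synthesis, Fasn, which builds palmitate, measured 16.6 and 24 FPKM in the controls and 19.9 and 23.8 FPKM in the CD37-/- libraries, and its log2 fold change was 0.12 (standard error 0.27). Acly had 4.34 and 5.42 against 5.46 and 5.86 (0.19, standard error 0.20), a gap between the groups that was smaller than the spread within CD37 fl/fl. Acaca, acetyl-CoA carboxylase 1, which makes malonyl-CoA, had 1093 and 2192 reads against 969 and 1216 reads in libraries that were larger. Scaled by depth it was lower in both CD37-/- libraries (0.201 and 0.198 FPKM, against 0.262 and 0.465). limma-voom gave a log2 fold change of -1.05 (standard error 0.30), an unadjusted p of 0.00925 and an adjusted p of 0.124.

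Elongation and desaturation held the widest differences of the 31 genes in limma-voom. Elovl6, which elongates palmitate to stearate (chromosome 3, 129532355 to 129638495), was covered by 140 and 989 reads in the controls and by 26 and 65 reads in the CD37-/- libraries. Fads2, the delta-6 desaturase of polyunsaturated fatty acids (chromosome 19, 10062765 to 10101746), had 87 and 787 reads against 24 and 48. In both genes CD37 fl/fl replicate 2 stood far above the other 3 libraries, and CD37 fl/fl replicate 1 still lay above both CD37-/- libraries. Fads1, the delta-5 desaturase beside it on chromosome 19 (10182888 to 10196877), had an FPKM of 1.31 and 3.39 against 1.05 and 1.22, again without overlap. Scd2, a delta-9 desaturase, had an FPKM of 12.5 and 32.5 against 13 and 9.6, and here CD37 fl/fl replicate 1 lay between the CD37-/- libraries. Scd1 had 5 and 27 reads against 5 and 2, too few to compare. Elovl5, which elongates polyunsaturated fatty acids, measured 0.974 and 0.882 against 1.07 and 1.13 FPKM (log2 fold change 0.13, standard error 0.16).

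On log2(FPKM + 1), where 3 of these 6 genes were tested, the log2 fold changes were -0.58 for Fads1 (standard error 0.32) and -0.80 for Scd2 (standard error 0.46), with limma adjusted p of 0.302 and 0.317. On the reads, limma-voom gave -3.72 for Elovl6 (standard error 1.09, unadjusted p = 0.0105), -3.51 for Fads2 (1.18, 0.0197), -1.16 for Fads1 (0.45, 0.0345) and -1.08 for Scd2 (0.43, 0.0399). Their adjusted p in limma-voom lay between 0.128 and 0.192. In that fit 9 of the 31 genes were called lower (with Acaca, Pmvk, Acat2, Mvk and Msmo1) and 2 higher (Lss and Hsd17b7), where it called 11.6% of all genes lower and 12.3% higher. In the same fit the median log2 fold change of the 31 genes was -0.33, against 0.02 for all genes. CD37 fl/fl replicate 2 decided the size of these values. Without it the limma-voom log2 fold changes were -2.38 for Elovl6 (adjusted p = 0.044, limma-voom with Benjamini-Hochberg adjustment), -1.99 for Fads2, -0.49 for Fads1 and -0.43 for Scd2, and 325 of the 12901 genes passed the adjusted threshold, Lss (3.35, limma-voom adjusted p = 0.0377) among them. Without CD37 fl/fl replicate 1, which leaves the high library as the lone control, they were -4.94, -4.90, -1.77 and -1.73, all with a limma-voom adjusted p under 0.05, as for Acaca (-1.42) and 773 of the 12901 genes in all. A lone library is assumed there to vary like the other group. CD37 fl/fl replicate 2 also held the highest Ctsg, a granule protease among the myeloid markers (FPKM 1357, against 361.6 to 403.1 in the other libraries), and its part in these results was not tested.

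Most sterol enzymes differed between the replicates of a genotype in the same direction. Of the 14 sterol enzymes tested, 12 were higher in CD37 fl/fl replicate 2 than in replicate 1, with a median difference of 0.32 on log2(FPKM + 1), against 61.2% of all 6761 genes with a median of 0.09. This was not particular to them, since 11 of the 13 proliferation genes were also higher there (median 0.40). In CD37-/-, 12 of the 14 were higher in replicate 1 than in replicate 2, with a median of 0.28, against 49.05% of all genes with a median of -0.01 and 5 of the 13 proliferation genes. Both held for 10 of the 14 (71.43%), against 29.94% of all genes. The directions counted are those in which most of these enzymes differed, so these shares describe the 4 libraries and are not a test. Examples were Sqle (0.73 and 0.41), Cyp51 (0.54 and 0.48) and Acat2 (0.50 and 0.49). CD37 fl/fl replicate 1 and CD37-/- replicate 2 were thus the low libraries of their groups for most sterol enzymes, and for Sqle, Cyp51 and Hmgcs1 these differences were larger than that between the genotypes. Among the regulators, Srebf1, Srebf2 and Scap were higher in CD37-/- replicate 2 (replicate 1 minus replicate 2 of -0.31, -0.28 and -0.14). Idi1 was higher in replicate 2 of both genotypes (0.60 and -0.47).

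**Figure D3:**
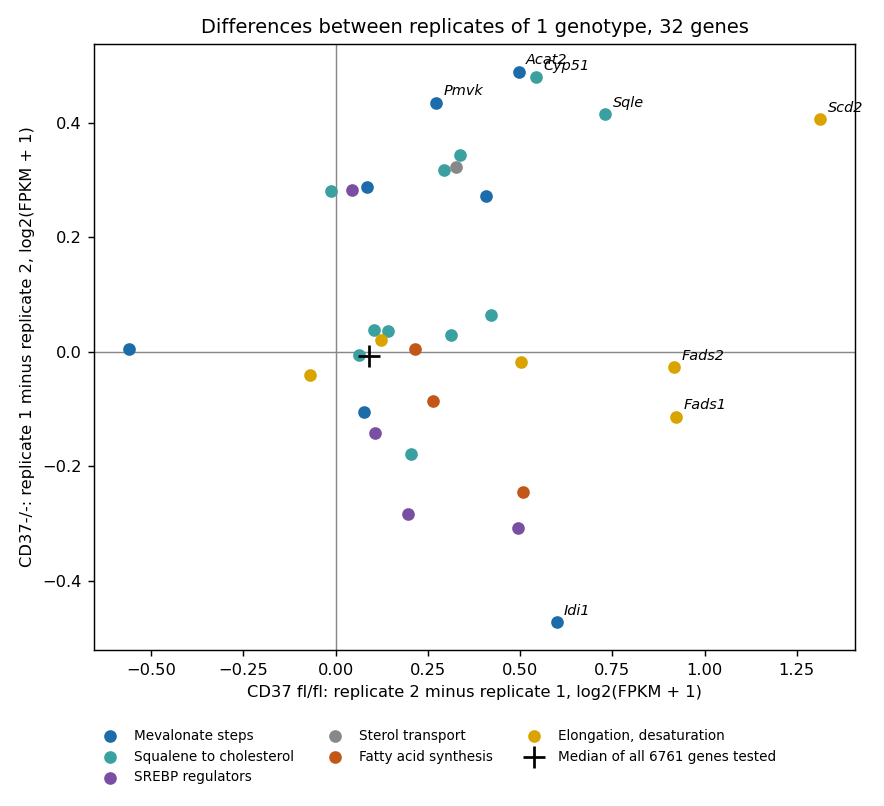
Difference between the replicates of CD37 fl/fl (replicate 2 minus 1, horizontal) and of CD37-/- (replicate 1 minus 2, vertical), on log2(FPKM + 1), for the 32 genes, with the median of all 6761 genes tested as a cross. Most sterol enzymes (blue and teal) lie in the upper right, as Sqle and Cyp51 do, while Fads1 and Fads2 lie far to the right and near 0 on the vertical axis.

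Other genes of lipid metabolism were taken from lists. Of the further SREBP pathway genes, Insig2, the other retention protein, had an FPKM of 0.194 and 0.168 in the controls against 0.423 and 0.412 in the CD37-/- libraries. Acss2, which makes acetyl-CoA from acetate, had 0.0337 and 0.0375 against 0.0973 and 0.0985. Neither gene overlapped between the genotypes. Both lay below the filter on the mean and were called higher at an unadjusted p under 0.05 by limma with all genes above 0, while Acacb, acetyl-CoA carboxylase 2, named after its values were seen, was called lower. None of these 3 genes had a limma adjusted p under 0.05.

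Among 11 genes of LXR control, efflux and storage, 7 were tested, 4 with a log2 fold change above 0 and 3 below. limma called 1, Npc2, which hands cholesterol out of the lysosome, with an FPKM of 32.6 and 24.3 against 16.2 and 18.7 (log2 fold change -0.67, unadjusted p = 0.0424, adjusted p = 0.193). In prenylation and the ubiquinone and dolichol branches, which share farnesyl diphosphate with the sterols, 7 of 10 genes were tested and 0 were called, with a median of -0.11. Of the NADPH-supplying genes 2 were tested, with 0 called. In fatty acid oxidation, the opposite route, Acadvl was called higher (0.64, unadjusted p = 0.0135, limma). All 13 proliferation genes were tested, 12 with a log2 fold change above 0 and 8 called higher, among them Mcm2 (1.14), Pcna (0.94), Aurkb (0.92) and Ccna2 (0.90). In limma, 0 genes of these lists passed an adjusted p of 0.05. The share of the proliferation list called in limma on log2(FPKM + 1) (61.54%) lay above the background of 24%. That of the sterol and fatty acid genes (8.333%) lay below it. In limma-voom both shares lay above the background of 23.93%, at 50.0% and 35.48%. The difference between the lists was not tested.

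**Figure D4:**
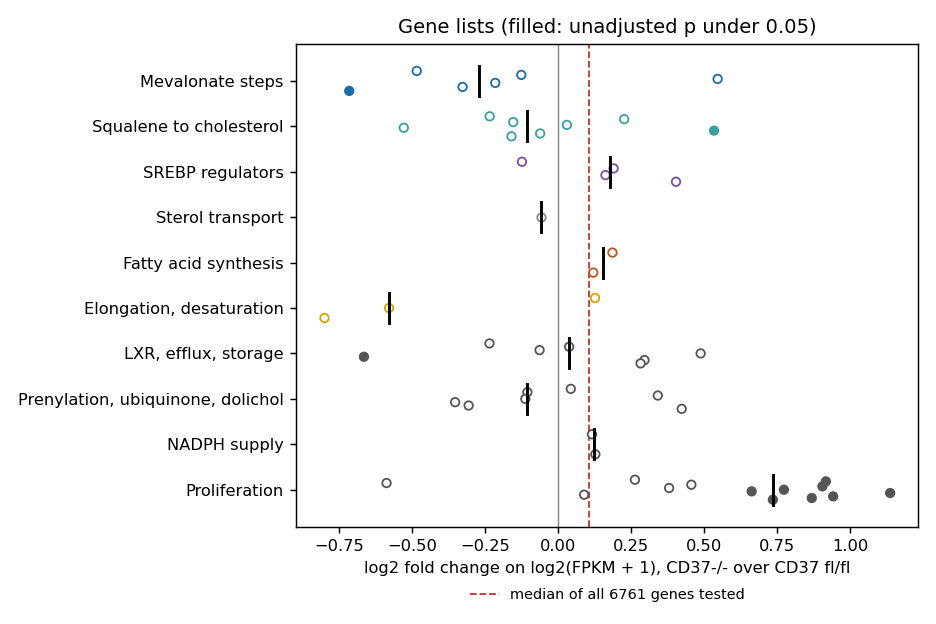
log2 fold changes on log2(FPKM + 1) of the tested genes in each role of the 32 genes and in 4 other lists, with a black bar at each list's median, filled points for an unadjusted p under 0.05 in limma and a dashed line at the median of all 6761 genes (0.11). The medians of the mevalonate steps (-0.27), squalene to cholesterol (-0.11) and elongation and desaturation (-0.58) lie left of that line, and the proliferation genes (0.74) lie furthest right.

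Reads of some of the 32 genes are uncertain because other genes share their sequence or position. For Fdps, 89.73% of the span lies within the predicted gene Gm43738 on the same strand, and 85.82% of the transcript's stretches of 50 bases also occur in other genes. In Acaca, 52.59% of the transcript's stretches of 50 bases also occur in Gm5182, which went in the opposite direction to Acaca (0.118 and 0.313 FPKM in the controls, 0.916 and 2.74 FPKM in the CD37-/- libraries). Acat2 shares 45.7% of such stretches, mostly with Acat3. Idi1 shares 30.87% and Fdft1 30.41%. For Lss and Hmgcs1, antisense genes cover 44.1% and 34.62% of the span, and for Mvd a predicted gene on the other strand covers 100% of it. The libraries mark strand, but whether the counting used it is not given in the sources used here. Pmvk, Hsd17b7, Fads1 and Fads2 shared 0% of such stretches with another gene, and Sc5d 0.42%.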

How the data were processed

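Poly(A) RNA of 4 samples (2 CD37 fl/fl, 2 CD37-/-) was sequenced with strand marking. Per gene and library, the authors deposited 1 FPKM value, not logged and not pooled. The submitters' processing notes name fastp 0.20.1, STAR 2.7.7a, featureCounts 2.0.0, edgeR and the build mm39. Gene names and coordinates here are those of GENCODE M21 on GRCm38 (17045 of 17104 identifiers matched, 99.66%), whose gene spans gave whole reads within a tolerance of 0.05, which chance meets for 10% of values. By exon length, 11.2% to 11.8% of low values came out whole.

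log2(FPKM + 1) was fitted in limma 3.58.1 under R 4.3.3 (lmFit, then eBayes with trend) for the 6761 genes whose mean reached 1 FPKM, without a block, and p-values were adjusted by Benjamini-Hochberg at a threshold of 0.05. Groups followed the genotype labels. Whole reads were fitted, for genes averaging 10 or more, with limma-voom after TMM scaling, as an alternative. The code was tested on simulated data. All 32 listed genes are named, and of other lists those with an unadjusted p under 0.05, at most 4 per list by size of change; some genes of these lists are not reported here. Members and lists were chosen with earlier results of these data known. Other alternatives were a pseudocount of 0.1, all genes above 0, quantile, TPM and upper quartile scaling, eBayes without trend or robust, the replicate block, FPKM per exon length and each library left out. The fit of all genes with a pseudocount of 0.1, and limma-voom with libraries left out or with the block, were chosen after seeing the data. Depth per library is implied by the values, and with 2 libraries a group the precision is set by the replicates. Python 3.11.15, pandas 2.3.3, numpy 2.4.6 and matplotlib 3.10.9 made tables and figures.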

Additional observations from a re-analysis of the deposited data

How the results depend on the processing

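In the limma fit of 6761 genes, 1 of the 24 tested genes was higher and 1 lower at an unadjusted p under 0.05, and 0 of all genes had an adjusted p under 0.05. A pseudocount of 0.1, eBayes without trend and robust eBayes changed neither count of the 24, although robust eBayes brought 88 of all genes to an adjusted p under 0.05 in limma. The counts were 0 higher and 5 lower after quantile normalization, 2 and 0 after TPM rescaling, 0 and 2 after division by the upper quartile (46 of all genes at an adjusted p under 0.05, limma), 3 higher with all genes above 0, 2 higher with a pseudocount of 0.1 as well, 2 and 3 with FPKM per exon length (16 of all genes at an adjusted p, limma) and 2 and 9 in limma-voom. Of all genes called by limma at an unadjusted p, 66.9% were higher, against 47.5% after quantile normalization, 91.4% with TPM, 44.0% with the upper quartile and 51.5% in limma-voom, and the median of all genes was 0.11, -0.02, 0.49, -0.03 and 0.02. The median of the fatty acid genes minus that of all genes was -0.20 with all genes above 0, -0.69 with a pseudocount of 0.1 as well, -0.90 per exon length and -1.08 in limma-voom, where more of these genes were tested.

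Signs of small log2 fold changes turned with the scaling. Quantile normalization gave -0.18 for Fdft1, -0.022 for Scap and -0.12 for Elovl5. TPM gave 0.18 for Hmgcs1, 0.14 for Mvd, 0.29 for Sqle, 0.050 for Cyp51, 0.15 for Tm7sf2, 0.21 for Ebp, 0.24 for Insig1 and 0.29 for Stard4. The upper quartile gave -0.076 for Fdft1 and -0.055 for Fasn, and limma-voom -0.19 for Fdft1, -0.035 for Srebf1, -0.012 for Acly and -0.11 for Fasn.

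The labels do not say whether replicate numbers pair the samples. The correlation of the deviations of replicates 1 was -0.042 over 6761 genes. A single correlation over genes cannot decide whether samples of the same number shared a litter or a day, so pairing stays unknown. With the replicate block, limma called 2 of the 24 genes higher (Idi1 joined Sc5d) and 73 of all genes had an adjusted p under 0.05. With the block in limma-voom, 2 genes were higher and 9 lower, and 2 of the 31 (Elovl6 -4.02, Fads2 -3.92) and 365 of all genes had an adjusted p under 0.05. The median of the fatty acid genes minus that of all genes was then -1.07, and the log2 fold changes were -0.19 for Fdft1, -0.033 for Srebf1, -0.0099 for Acly and -0.10 for Fasn.

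With each library left out in turn, in limma and in limma-voom, 0 to 4 genes were higher and 0 to 10 lower at an unadjusted p, and 0 to 5 of the 32 and 0 to 773 of all genes had an adjusted p under 0.05, in both counts most in limma-voom without CD37 fl/fl replicate 1. Medians minus that of all genes ran from -0.60 to -0.054 for all listed genes, from -0.56 to -0.056 for the sterol genes and from -1.58 to 0.036 for the fatty acid genes. Signs turned for Hmgcs1 (-0.70 to 0.077), Mvd (-0.82 to 0.065), Fdft1 (-0.29 to 0.082), Sqle (-0.76 to 0.30), Cyp51 (-0.98 to 0.037), Dhcr7 (-0.17 to 0.50), Srebf1 (-0.30 to 0.41), Insig1 (-0.59 to 0.017), Stard4 (-0.59 to 0.10), Acly (-0.13 to 0.32), Fasn (-0.34 to 0.37) and Elovl5 (-0.10 to 0.16). Causes were not tested. With 2 libraries a group, 10 of the 32 genes lay higher and 9 lower in CD37-/- without overlap, and the others overlapped. This share (59.38%) was near that of all genes above 0 (54.96%), so it does not set these genes apart. Intervals from reads alone would cover counting error only.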
